A study of Mus musculus with 18 samples.

Results

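The genes described here are 47 mouse genes of the actin cytoskeleton and of 2 transcriptional programmes that respond to mechanical tension, those of SRF with its MRTF co-activators and of YAP and TAZ with the TEAD factors. They were chosen by name, as actin and contractile genes, filamins, pathway factors and known targets, with earlier results of these data known. They were looked up by gene symbol in the deposited table. Of the 47 genes, 45 had a row among the 12012 genes of the table. Gadd45a and Ankrd1, 2 listed YAP/TEAD targets, had no row, and no value is given for them. No gene of the table had a mean under 40.7 normalized counts over the 8 libraries.

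The cultures came from hippocampi of embryonic day 18.5 mice on a C57BL/6J background, either Fibcd1 WT or homozygous for the constitutive Fibcd1tm1Lex knockout allele (KO). All the cultures compared here were plated on coverslips coated with chondroitin sulphate proteoglycans (CSPG), in medium with serum and B27 supplement. Part of this medium was later exchanged for serum-free medium. This gives the groups WT_CSPG and KO_CSPG with 4 libraries each, lettered A to D. The labels call the cell type neuron, but no cell type was sorted and the coating is shared by both groups, so the comparison is one of genotype on CSPG and not of CSPG with its absence. Of 18 libraries labelled in the series, the 5 WT and 4 KO libraries without CSPG and the WT_CSPG library E were not analysed here. The age of the cultures is given in the study as either day 2 or day 3 in vitro, and a replicate is one preparation of cells. The p-values set the genotype difference against the spread between such cultures, with each gene's variance drawn towards that of other genes.

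FIBCD1 is a membrane receptor that binds chondroitin sulphate chains, and CSPGs are major components of the extracellular matrix around neurons. MRTF proteins are held by monomeric actin in the cytoplasm and, once actin polymerises, move to the nucleus and act with SRF at CArG boxes, many of which lie before genes of actin and its partners. YAP and TAZ (encoded by Wwtr1) are kept out of the nucleus by the LATS kinases of the Hippo pathway and otherwise activate genes with the TEAD factors. In the developing hippocampus SRF is known for its part in neuronal migration and axon growth, and YAP for its part in neural progenitors and glia.

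The DNA around the start sites was searched for the elements through which both programmes are known to act. RefSeq promoter windows on GRCm38.p6, from 250 bases before to 50 bases after the start, were matched to 38 of the 47 genes. The CArG box was searched as CCWWWWWWGG, with W for A or T, a pattern that covers both strands. It was found in a window of 5 of these 38 genes (Srf, Myl9, Fhl2, Myl6 and Fhl1), and 1.63% of all 32851 windows held one. Forms with another base were not counted, such as CCCTATATGG in the Acta2 window. The core TEAD motif GGAATG, or its reverse complement CATTCC on the other strand, was found in a window of 18 of the 38 genes, and 14.7% of all windows held it. Since some genes have several windows, the count with 1 window per gene, the nearest to the start in the table, was 4 genes for the CArG box and 17 for the TEAD motif. A match of one motif can overlap one of the other at the GG that ends a CArG box, and none did in the windows printed here. Matches are a description of letters and not of binding, and a window without one says nothing of variant forms or of elements elsewhere. Printed first are 3 windows with a CArG box, Srf, Myl9 and Fhl2, then a classic YAP/TEAD target, Cyr61 (RefSeq symbol Ccn1), and the windows of Flnc and Emp1, the actin cross-linker gene called lower and the gene with the largest fall of the set. Matches are in capitals and each sequence runs 5′ to 3′ on the strand of its gene. The Srf window (chr17:46556113-46556412, minus strand) had CArG boxes starting 82 and 62 bases before the start site. The Myl9 window (chr2:156775214-156775513, plus strand) had one 161 bases before it. The Fhl2 window (chr1:43196712-43197011, minus strand) had one 96 bases before it. In the windows of Cyr61 (chr3:145649936-145650235, minus strand) and Flnc (chr6:29433006-29433305, plus strand) a TEAD motif began 103 and 104 bases before the start. The Emp1 window (chr6:135362681-135362980, plus strand) had neither motif, and its start lies 386 bases from the 5′ end of the gene in the table. Among the other genes called lower below, the windows of Tgfb2 and Myh9, not printed, also had neither motif. Nor did the Mkl2 window nearest to the start in the table, while another Mkl2 window, 101940 bases from that start, had a TEAD motif.
Srf: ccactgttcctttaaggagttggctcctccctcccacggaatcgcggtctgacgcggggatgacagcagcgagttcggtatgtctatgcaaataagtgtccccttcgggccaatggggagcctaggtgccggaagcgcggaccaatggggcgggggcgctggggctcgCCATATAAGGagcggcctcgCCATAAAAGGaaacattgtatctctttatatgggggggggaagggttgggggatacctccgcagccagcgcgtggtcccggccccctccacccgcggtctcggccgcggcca
Myl9: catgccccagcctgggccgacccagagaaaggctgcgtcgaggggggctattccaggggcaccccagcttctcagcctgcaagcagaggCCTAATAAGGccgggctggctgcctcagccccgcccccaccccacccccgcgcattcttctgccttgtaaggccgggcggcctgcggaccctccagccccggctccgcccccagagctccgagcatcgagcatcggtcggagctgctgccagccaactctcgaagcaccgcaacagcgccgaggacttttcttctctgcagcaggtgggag
Fhl2: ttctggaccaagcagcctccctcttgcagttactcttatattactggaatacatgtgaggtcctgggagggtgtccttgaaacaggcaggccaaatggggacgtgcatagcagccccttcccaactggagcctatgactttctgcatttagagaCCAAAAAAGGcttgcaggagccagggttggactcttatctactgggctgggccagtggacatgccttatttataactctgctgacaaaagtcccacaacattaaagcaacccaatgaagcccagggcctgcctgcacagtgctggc
Cyr61: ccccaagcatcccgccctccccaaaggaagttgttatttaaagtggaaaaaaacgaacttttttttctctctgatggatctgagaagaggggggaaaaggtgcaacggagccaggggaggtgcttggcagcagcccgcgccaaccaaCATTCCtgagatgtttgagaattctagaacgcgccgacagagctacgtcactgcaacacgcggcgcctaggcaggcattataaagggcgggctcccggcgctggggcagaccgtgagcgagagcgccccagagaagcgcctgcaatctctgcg
Flnc: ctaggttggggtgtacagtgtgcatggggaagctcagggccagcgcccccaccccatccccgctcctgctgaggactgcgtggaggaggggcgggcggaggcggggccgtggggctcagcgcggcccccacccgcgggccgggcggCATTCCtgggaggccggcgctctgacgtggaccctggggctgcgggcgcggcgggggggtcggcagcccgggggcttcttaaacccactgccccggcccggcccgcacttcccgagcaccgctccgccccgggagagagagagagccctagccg
Emp1: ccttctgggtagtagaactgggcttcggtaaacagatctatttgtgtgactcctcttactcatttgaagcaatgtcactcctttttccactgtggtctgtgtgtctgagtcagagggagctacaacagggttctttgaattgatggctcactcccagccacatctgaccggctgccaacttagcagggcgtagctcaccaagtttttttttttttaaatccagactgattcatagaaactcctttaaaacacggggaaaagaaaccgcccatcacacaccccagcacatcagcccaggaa

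Reads over the genes of the table ranged from 10099564 to 11174615 in WT_CSPG and from 10541445 to 11647202 in KO_CSPG. Fibcd1 itself (ENSMUSG00000026841, chr2:31813290-31846005, minus strand, mm10) had 54.3, 70.4, 60.1 and 182 normalized counts in WT_CSPG A to D and 0.970, 0.932, 7.16 and 4.74 in KO_CSPG A to D, with a log2 fold change of −4.48 ± 0.58 (SE, adjusted p = 0.00599). The level separated the genotypes as labelled, and WT_CSPG D was well above the other WT libraries. That library also stood apart in choroid plexus markers, whose summed level was 4104 normalized counts there against 185 to 1345 in the other WT libraries and 225 to 566 in KO_CSPG. The 4 Y-linked genes measured were lower in KO_CSPG, with log2 fold changes from −0.85 to −0.67, and Xist was higher by 0.67, levels that track the sex of the embryos in a culture. Genotype accounted for 89.8% of the variance of the Y-linked level, and embryo sex and genotype cannot be told apart in these 8 libraries. Flna and Fhl1 are the X-linked genes of the set. Of the markers of the cultured cells, Olig1 (0.59) and Olig2 (0.79), transcription factors of the oligodendrocyte lineage, rose on the log2 scale in KO_CSPG, while Nes (−0.22), the intermediate filament of neural progenitors, and Neurod6 (−0.19), a factor of excitatory neurons, fell. The lists of the last 2 markers were mixed in direction, with 6 of 11 astrocyte and radial glia markers and 7 of 12 neuron markers above 0. In bulk libraries fewer cells of a type and less RNA per cell cannot be told apart.

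Actb and the non-muscle contractile genes set the scale of the programme in these cultures. Per 1000 bases of gene length, the scale used for levels between genes, Actb (cytoplasmic β-actin) had a mean of 10439 normalized counts over the 8 libraries. The next highest were Myl6 (essential myosin light chain) at 688, Nf2 (merlin) at 534, Tpm4 (a tropomyosin) at 520.2, Flna (filamin A) at 506, Myh10 (non-muscle myosin heavy chain IIB) at 469 and Fhl1 (a LIM domain protein) at 431. Acta2, the smooth muscle actin, was at 71.6 and Flnc, the filamin best known from muscle, at 24.4. The pathway factors lay in the middle and lower range, with Srf at 136, Mkl1 at 82.0, Mkl2 at 52.4, Wwtr1 at 80.3, Tead1 at 71.0, Tead2 at 44.9 and Yap1 at 30.3. The lowest levels were those of Ptpn14 (a phosphatase that binds YAP) at 6.76 and Dlc1 (a GTPase-activating protein) at 19.2. Of 9 listed markers of the mural and smooth muscle lineage, with which Acta2 and Flnc are often linked, 6 had no row, among them Myh11, Tagln, Cnn1 and Des. The other 3, Rgs5, Notch3 and Anpep, had a row, with sums of 288 to 416 normalized counts in WT_CSPG and 357 to 459.7 in KO_CSPG. The part of mural cells in the levels of Acta2 and Flnc was not tested.

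**Figure D1:**
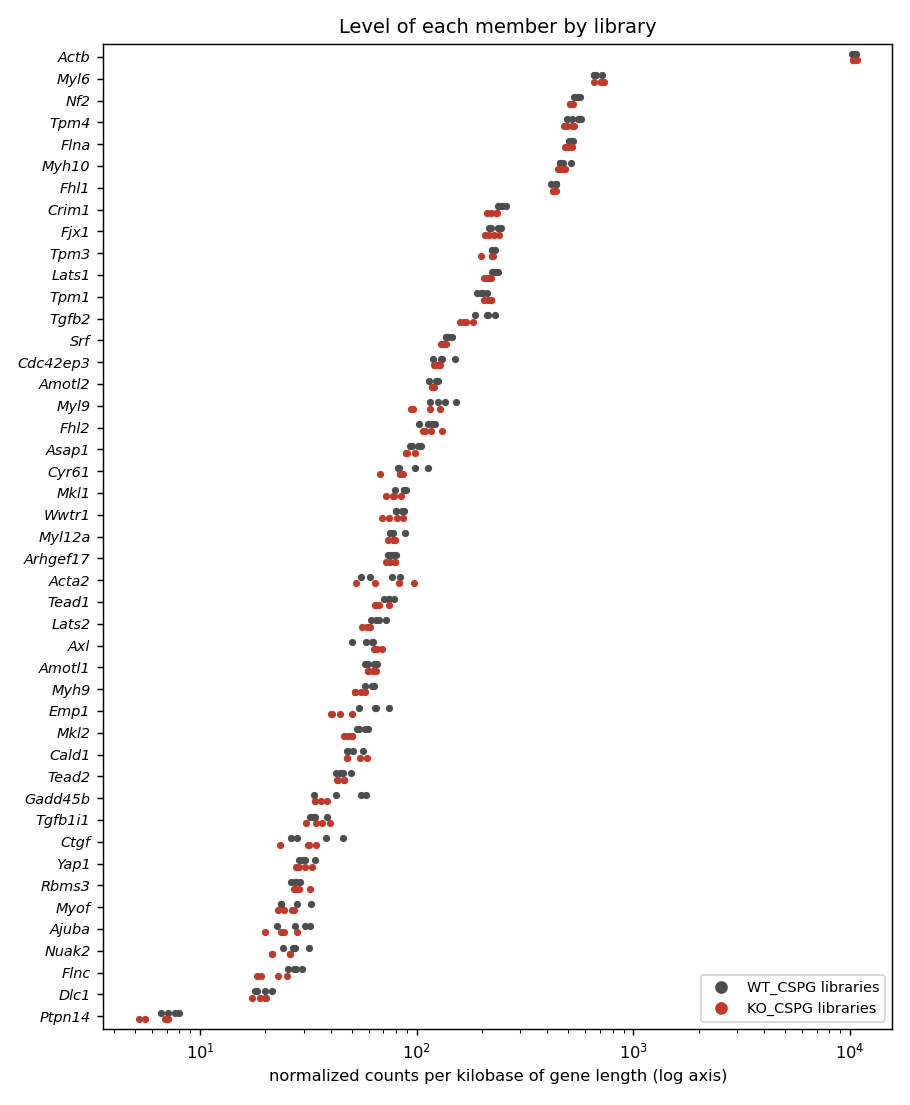
Normalized counts per 1000 bases of gene length (horizontal log axis) of the 45 genes with a row, ordered by their mean, with 1 point per library (grey, WT_CSPG; red, KO_CSPG). Actb at 10439 stands far above Myl6 at 688, and Ptpn14 at 6.76 is the lowest.

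Between the genotypes 5 of the 45 genes passed the test, all lower in KO_CSPG: Emp1, Tgfb2, Flnc, Myh9 and Mkl2. These falls were between 11.8% and 31.5%. The 5 genes are 11.1% of the set, against 1.79% of all 12012 genes called lower in the same fit. Since the set was chosen with earlier results of these data known, this share and those below describe it and are not a test. None of the 45 genes was called higher, against 1.09% of all genes. At an unadjusted p under 0.05, 15 of the 45 genes were lower (33.3%, against 8.67% of all genes) and 2, Axl and Tpm1, were higher (4.44%, against 7.51%). The log2 fold change was negative for 37 of the 45 genes and for 5994 of the 12012 genes, with a median of −0.08 over the set and 0.00 over all genes. The 2 groups of libraries did not overlap for 8 genes lower in KO_CSPG (Mkl2, Flnc, Emp1, Lats1, Lats2, Nf2, Crim1 and Tgfb2), or 17.8% of the set against 5.17% of all genes. Axl alone was higher without overlap, or 2.22% against 4.05%. With a Y-linked level added to the fit as a covariate, 0 of the 45 genes passed the test and 11 were at an unadjusted p under 0.05, with 3 of all genes called. Under that covariate the log2 fold change was −0.04 for Tgfb2, −0.30 for Emp1, −0.82 for Flnc, −0.43 for Myh9 and −0.49 for Mkl2. Their adjusted p ran from 0.404 for Flnc to 0.976 for Tgfb2. Genotype accounted for 89.8% of the variance of this covariate, so genotype and covariate are poorly separated in this fit. Without a trend of the variance on the mean 0 of them passed and 15 were at an unadjusted p under 0.05, with 80 of all genes called.

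**Figure D2:**
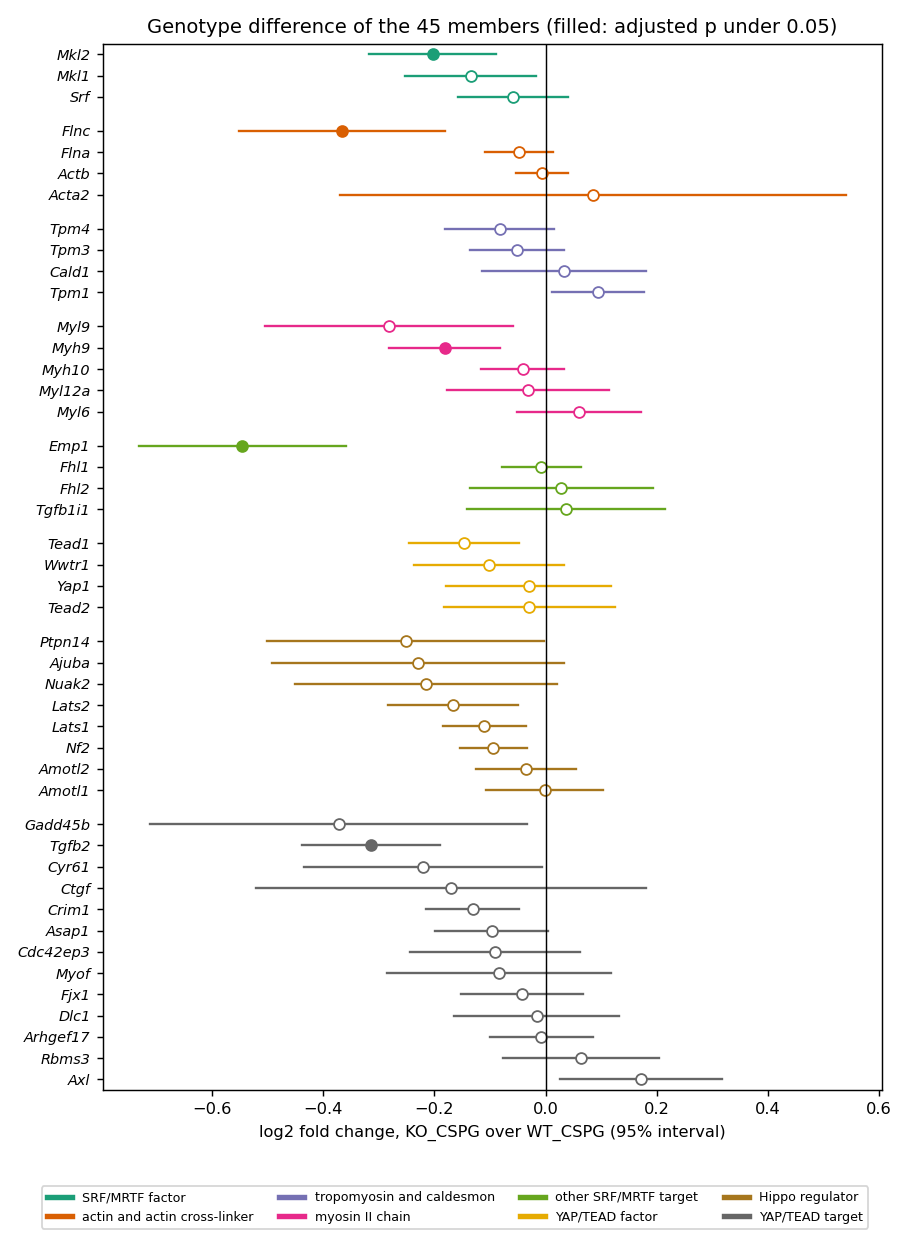
Log2 fold change of KO_CSPG over WT_CSPG (horizontal axis) with its 95% interval for the 45 genes, coloured by role, with filled points for an adjusted p under 0.05. The 5 filled points (Mkl2, Flnc, Myh9, Emp1 and Tgfb2) lie left of 0, as do 37 of the 45 points, and most intervals of the remaining genes include or come close to 0.

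Of the 3 SRF/MRTF factors, the co-activator gene Mkl2 fell, and neither Mkl1 nor Srf passed the test. Mkl2 encodes MRTF-B (ENSMUSG00000009569, chr16:13256481-13417529, plus strand) and had 487, 537, 475 and 519.7 normalized counts in WT_CSPG A to D and 415, 452, 453 and 432 in KO_CSPG A to D. Every KO library was below every WT library, with means of 505 ± 28.7 and 438 ± 18.1 (SD, n = 4 each). The log2 fold change was −0.20 ± 0.06 (SE, adjusted p = 0.0433), close to the threshold, and the call was lost on leaving out any library but WT_CSPG C, with adjusted p up to 0.154. Mkl1, which encodes MRTF-A, had 485, 533, 547 and 533 normalized counts in WT_CSPG and 439, 517, 478 and 476 in KO_CSPG. The groups overlapped through WT_CSPG A and KO_CSPG B, and the log2 fold change was −0.14 ± 0.06 (SE, adjusted p = 0.226). Srf, the DNA-binding partner of both, had 571, 557, 559 and 592 against 555, 531, 541 and 560.3 normalized counts. Its groups overlapped, and the 95% interval of its log2 fold change ran from −0.16 to 0.04.

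Among the actins and their cross-linkers the filamin Flnc fell, and the 2 actins gave no call. Flnc (ENSMUSG00000068699, chr6:29433256-29461883, plus strand) encodes filamin C, which cross-links actin filaments, and had 238, 254, 276 and 259.9 normalized counts in WT_CSPG A to D and 179, 237, 172 and 215 in KO_CSPG A to D. KO_CSPG B lay just under WT_CSPG A, and the other KO libraries were well below the WT range, with means of 257 ± 15.7 and 201 ± 30.6 (SD, n = 4 each). The log2 fold change was −0.37 ± 0.09 (SE, adjusted p = 0.0259). The call was lost without WT_CSPG B (adjusted p = 0.0510), without WT_CSPG C (0.0945), without KO_CSPG A (0.106) or without KO_CSPG C (0.106). Flna, the abundant X-linked filamin A, ran from 4746 to 4964 in WT_CSPG and from 4533 to 4894 in KO_CSPG, with a log2 fold change of −0.05 ± 0.03 (SE, adjusted p = 0.457). Actb had 27404, 28010.4, 28518 and 28187 normalized counts in WT_CSPG and 27514, 27716, 28701 and 27686 in KO_CSPG. Its level was nearly even over the 8 libraries, and the 95% interval of its log2 fold change, from −0.05 to 0.04, was among the narrowest of the set. Acta2 was spread far more widely, with 148, 108, 137 and 97.8 normalized counts in WT_CSPG and 114, 173, 93.0 and 148 in KO_CSPG. The groups lay across each other, and the interval of −0.37 to 0.54 leaves the direction of Acta2 undetermined.

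The tropomyosins and caldesmon, which sit along actin filaments, gave no call in 4 genes, and 1 of them, Tpm1, was higher at an unadjusted p under 0.05. Tpm1 had the largest difference in the upward direction, with 1231 to 1373 normalized counts in WT_CSPG and 1324 to 1429.6 in KO_CSPG and a log2 fold change of 0.09 ± 0.04 (SE, adjusted p = 0.231). Tpm3 (−0.05), Tpm4 (−0.08) and Cald1 (0.03) differed by less, and their intervals included 0. Of the 50-base windows of the Tpm3 transcript 37.6% were found in no transcript of another gene, so its counts may hold reads of related copies.

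The heavy chain of non-muscle myosin IIA fell among the 5 myosin II genes. Myh9 (ENSMUSG00000022443, chr15:77760587-77842175, minus strand) had 742, 800.3, 820.5 and 811 normalized counts in WT_CSPG A to D and 666, 747, 673 and 714 in KO_CSPG A to D. KO_CSPG B lay just above WT_CSPG A, and the other KO libraries were below every WT library. The means were 793 ± 35.4 and 699.9 ± 37.8 (SD, n = 4 each), and the log2 fold change was −0.18 ± 0.05 (SE, adjusted p = 0.0384). That call was kept only without WT_CSPG A or without KO_CSPG B, and adjusted p reached 0.145 without KO_CSPG A. Myl9, the regulatory light chain whose window is printed above with a CArG box, had 134, 175, 156 and 145 normalized counts in WT_CSPG and 149, 133, 109 and 111 in KO_CSPG. Its KO libraries C and D were the lowest, but the groups overlapped, and the log2 fold change of −0.28 ± 0.11 (SE) did not pass (adjusted p = 0.176). Myh10, the IIB heavy chain, ran from 4777 to 5408 normalized counts in WT_CSPG and from 4698 to 5039 in KO_CSPG, with a log2 fold change of −0.04 and an interval of −0.12 to 0.03. The light chains Myl6 (0.06) and Myl12a (−0.03) had intervals that included 0 on the log2 scale.

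Emp1 gave the largest fall of the set, and the other 3 SRF/MRTF targets, Fhl1, Fhl2 and Tgfb1i1, were close to even. Emp1 (ENSMUSG00000030208, chr6:135362545-135383173, plus strand) encodes a small membrane protein of the PMP22 family and had 442, 380.1, 384 and 320.0 normalized counts in WT_CSPG A to D and 298, 263, 239 and 242 in KO_CSPG A to D. All 4 KO libraries were below all 4 WT libraries, with WT_CSPG D and KO_CSPG A nearest to each other. The means were 382 ± 49.8 and 260.4 ± 27.0 (SD, n = 4 each), a fall of 31.5% with a log2 fold change of −0.55 ± 0.09 (SE, adjusted p = 0.00165). The call held on leaving out each library in turn, with adjusted p up to 0.0114 and log2 fold changes from −0.63 to −0.47. Fhl1 (−0.01), Fhl2 (0.03) and Tgfb1i1 (0.04), LIM domain proteins that bind at adhesions and in the nucleus, had 95% intervals of the log2 fold change of −0.08 to 0.06, −0.14 to 0.19 and −0.14 to 0.21. The printed Fhl2 window and that of Srf hold CArG boxes, and neither gene passed the test.

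**Figure D3:**
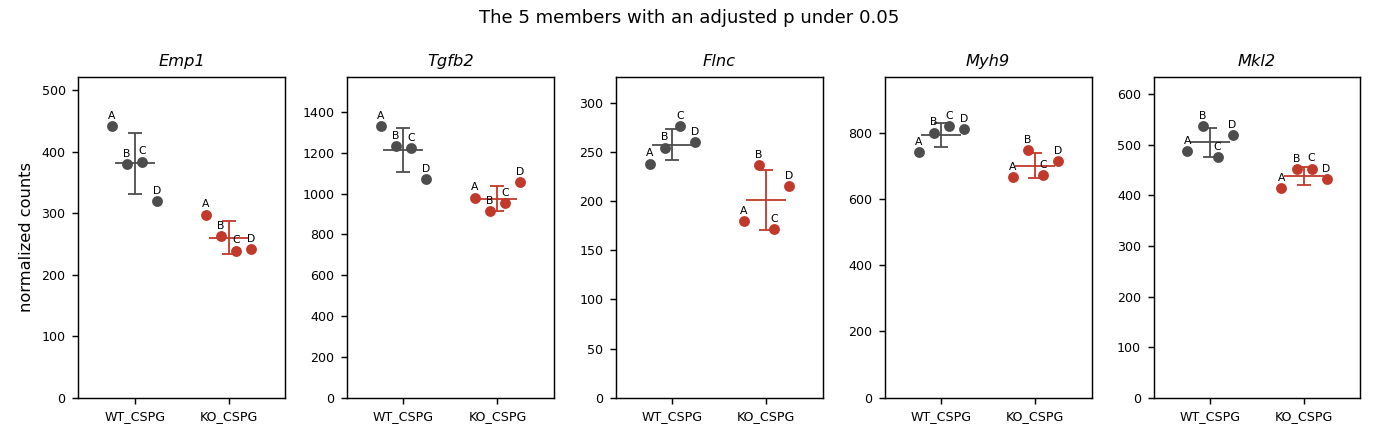
Normalized counts (vertical axes from 0, 1 scale per gene) of Emp1, Tgfb2, Flnc, Myh9 and Mkl2 in the WT_CSPG (grey) and KO_CSPG (red) libraries A to D, with the mean as a horizontal line and 1 SD as the error bar. The groups do not overlap for Emp1, Tgfb2, Flnc and Mkl2, and for Myh9 KO_CSPG B at 747 lies just above WT_CSPG A at 742.

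None of the 4 YAP/TEAD factors passed the test, although each had a log2 fold change below 0 and Tead1 was at an unadjusted p under 0.05. Tead1, a DNA-binding partner of YAP and TAZ, had 1068, 1006, 1013 and 960.0 normalized counts in WT_CSPG A to D and 866, 1013, 875 and 906 in KO_CSPG A to D. Without KO_CSPG B the groups would lie apart, and as measured the log2 fold change was −0.15 ± 0.05 (SE, adjusted p = 0.105). It passed without KO_CSPG B (adjusted p = 0.0185) and without WT_CSPG D (0.0480). Yap1 had 272, 283, 265 and 313 normalized counts in WT_CSPG and 283, 305, 264 and 257 in KO_CSPG, with groups that overlapped nearly in full and an interval of −0.18 to 0.12 for its log2 fold change. Wwtr1 had 381, 407, 415 and 384 against 410.2, 389, 354 and 331 normalized counts. Its KO libraries C and D were below all WT libraries, and the interval of its log2 fold change was −0.24 to 0.03. Tead2 differed by −0.03 on the log2 scale, with an interval of −0.18 to 0.12.

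**Figure D4:**
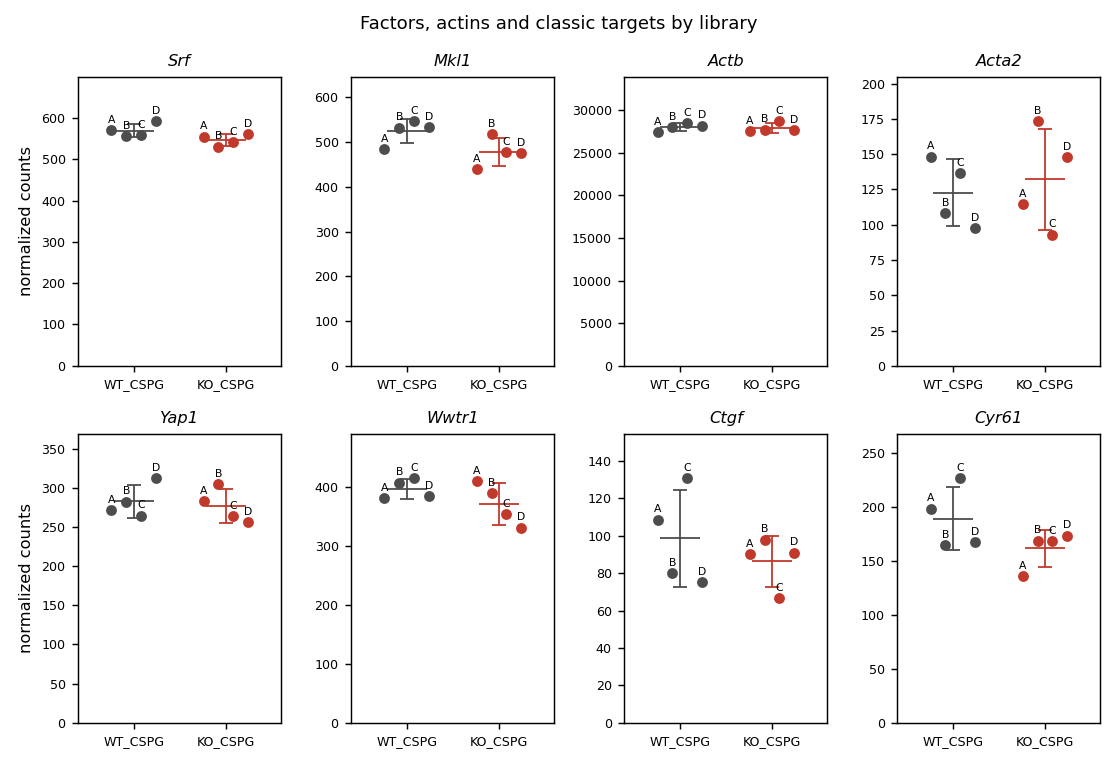
Normalized counts (vertical axes from 0, 1 scale per gene) by library of the factors Srf, Mkl1, Yap1 and Wwtr1, the actins Actb and Acta2, and the classic targets Ctgf and Cyr61, with means and SD as lines and bars (grey, WT_CSPG; red, KO_CSPG). The groups overlap in every panel, and Acta2 (97.8 to 148 in WT_CSPG, 93.0 to 173 in KO_CSPG) and Ctgf (75.4 to 131 and 66.5 to 97.9) show the widest spread.

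All 8 Hippo pathway regulators had a log2 fold change below 0, and 0 of them passed the test, while 4 were lower at an unadjusted p under 0.05 (50%, against 8.67% of all genes). Of all genes 49.9% had a log2 fold change below 0. Nf2, the gene of merlin, which promotes LATS activity at the membrane, had 3750.2, 3848, 3799.8 and 3643 normalized counts in WT_CSPG A to D and 3552, 3476, 3488 and 3575 in KO_CSPG A to D. The groups did not overlap, and the difference was small, at −0.09 ± 0.03 (SE, adjusted p = 0.0851) on the log2 scale. The kinase gene Lats1 had 1669.8, 1737, 1623 and 1644 against 1485, 1602, 1521 and 1576 normalized counts. Its KO libraries were again all the lower ones, with a log2 fold change of −0.11 ± 0.04 (SE, adjusted p = 0.108). Lats2, which YAP also activates in a feedback loop, had 527, 488, 475 and 447 against 431, 409, 444 and 439.9 normalized counts. These groups were separated by the narrow gap between WT_CSPG D and KO_CSPG C, and the log2 fold change was −0.17 ± 0.06 (SE, adjusted p = 0.118). Of the 50-base windows of the Lats2 transcript 43.5% were found in no transcript of another gene. Nf2 and Lats2 passed without WT_CSPG D (adjusted p = 0.0428 and 0.0431). Ptpn14, at 88.7 to 107 against 69.9 to 95.1 normalized counts, had a log2 fold change of −0.25 ± 0.12 (SE, adjusted p = 0.304). The LIM protein gene Ajuba (−0.23), the kinase gene Nuak2 (−0.22) and the angiomotin-like genes Amotl2 (−0.04) and Amotl1 (0.00) had adjusted p of 0.390, 0.365, 0.768 and 0.992.

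Of 15 listed YAP/TEAD targets 13 had a row, and 1 of them, Tgfb2, fell. Tgfb2 (ENSMUSG00000039239, chr1:186622792-186705989, minus strand) encodes a secreted ligand of the TGF-β family and had 1331, 1232, 1224 and 1071 normalized counts in WT_CSPG A to D and 980.3, 913, 953 and 1056 in KO_CSPG A to D. WT_CSPG D and KO_CSPG D nearly met, and the other libraries of the 2 groups were far apart, with means of 1215 ± 107 and 976 ± 60.4 (SD, n = 4 each). The log2 fold change was −0.31 ± 0.06 (SE, adjusted p = 0.00691), a fall of 19.5%, and the call held without each library in turn, with adjusted p up to 0.0421. Crim1, a transmembrane protein that binds BMP ligands, had 1424, 1431, 1488 and 1545 normalized counts in WT_CSPG and 1262, 1406, 1391 and 1319.6 in KO_CSPG. Its groups did not overlap, and its log2 fold change of −0.13 ± 0.04 (SE) did not pass (adjusted p = 0.0849). Axl, a receptor tyrosine kinase for GAS6, went the other way, with 252, 317, 292 and 312 normalized counts in WT_CSPG and 346, 330.1, 323 and 318 in KO_CSPG. WT_CSPG A was its lowest library and WT_CSPG B lay just under KO_CSPG D, and the log2 fold change was 0.17 ± 0.07 (SE, adjusted p = 0.216).

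The matricellular genes Ctgf and Cyr61, the targets most often read as a measure of YAP activity, did not pass the test. Ctgf had 109, 80.1, 131 and 75.4 normalized counts in WT_CSPG A to D and 90.2, 97.9, 66.5 and 91.0 in KO_CSPG A to D, with a log2 fold change of −0.17 and an interval of −0.52 to 0.18. Without WT_CSPG C that value was −0.02, and without KO_CSPG C it was −0.05. Cyr61 had 199, 165, 227 and 167 against 136, 169, 169 and 173 normalized counts. WT_CSPG A and C were its highest libraries and KO_CSPG A its lowest, while the other 5 lay together, and the log2 fold change was −0.22 ± 0.10 (SE, adjusted p = 0.293). Gadd45b, a stress-induced gene, ran from 42.2 to 73.4 normalized counts in WT_CSPG and from 42.7 to 48.5 in KO_CSPG, with a log2 fold change of −0.37 ± 0.16 (SE, adjusted p = 0.253). The ArfGAP gene Asap1 (−0.10), the Cdc42 effector Cdc42ep3 (−0.09), the ferlin gene Myof (−0.08), Fjx1 (−0.04), Dlc1 (−0.02), the guanine nucleotide exchange factor gene Arhgef17 (−0.01) and the RNA-binding protein gene Rbms3 (0.06) had adjusted p from 0.345 to 0.959.

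Further genes of the same pathways were listed by their known roles, also with earlier results of these data known. Of 40 other SRF/MRTF and actin pathway genes 35 had a row, and 2 were called lower (5.71%, against 1.79% of all genes) and 0 higher. At an unadjusted p under 0.05, 9 were lower (25.7%, against 8.67%) and 1 was higher (2.86%, against 7.51%). The groups did not overlap for 8 lower genes (22.9%, against 5.17%) and 1 higher gene (2.86%, against 4.05%). Cnn3, the acidic calponin and one of those called lower, had 3538, 3312, 3473 and 3189.7 normalized counts in WT_CSPG A to D against 3083, 3131, 3099.7 and 2999 in KO_CSPG A to D. Its groups did not overlap, and it fell by 0.13 ± 0.03 on the log2 scale (SE, adjusted p = 0.0267). Rock2, a kinase that acts on myosin, did not pass, at −0.14 ± 0.04 (SE, adjusted p = 0.0548). The median log2 fold change of these 35 genes was −0.04, and 25 were negative. Of 25 other Hippo and YAP/TEAD pathway genes 24 had a row, and limma called 0 of them, with 2 lower and 0 higher at an unadjusted p under 0.05. These 2 are 8.33% of the list, at the share of all genes (8.67%). The smallest p-values in that list belonged to the scaffold genes Frmd6 (−0.38 ± 0.12, SE, adjusted p = 0.0806) and Wwc1 (−0.12 ± 0.04, SE, adjusted p = 0.0851) and to the kinase gene Map4k4 (−0.05 ± 0.03, SE, adjusted p = 0.334), and the median log2 fold change was −0.03.

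The genes differed widely in how far replicate cultures spread. The median SD within groups on the log2 scale was 0.0875 over the 45 genes and 0.0830 over all genes. Acta2 (0.341), Ctgf (0.314), Gadd45b (0.264), Ajuba (0.208), Cyr61 (0.193), Myl9 (0.192) and Myof (0.178) spread most, whereas Actb (0.0259), Nf2 (0.0276) and Fhl1 (0.0316) spread least. In WT_CSPG, Acta2, Ctgf, Cyr61 and Myof were each higher in the libraries A and C than in B and D. Gadd45b, Ajuba, Myl9 and Ptpn14, also among the genes of widest spread, did not share this order, and Emp1 did with B and C nearly equal. For Ctgf the deviations from the group mean were 0.17 in A and 0.44 in C against −0.26 in B and −0.35 in D. In the same 4 libraries the summed fibroblast markers (−0.02 and −0.25 in A and C, 0.14 and 0.13 in B and D) and mural markers (−0.23 and −0.21 against 0.15 and 0.29) deviated the other way. So did the oligodendrocyte lineage sum (−0.18 and −0.21 against 0.20 and 0.19) and the choroid plexus sum (−0.55 and −2.26 against 0.60 and 2.21). The proliferation sum was also lower in A and C than in B and D, by smaller deviations. The neuron, astrocyte and radial glia, microglia and endothelial sums did not share this. What any of these sums contributes to the spread of the genes was not tested. In KO_CSPG the order was different, since Acta2 deviated by 0.43 in B and −0.46 in C, and the fibroblast markers by 0.32 and −0.32 in the same libraries.

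**Figure D5:**
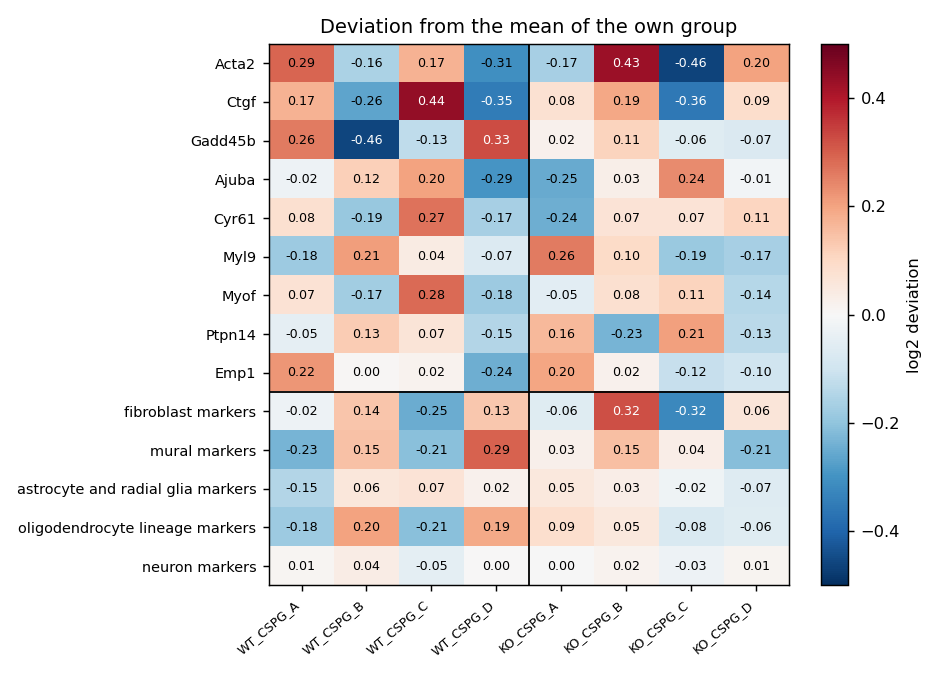
Deviation of log2 values from the mean of the own group in each library (columns) for the 9 genes with the largest SD within groups and, below the line, for the summed markers of 5 cell classes (blue, below the group mean; red, above it). In WT_CSPG, Acta2, Ctgf, Cyr61 and Myof are above the mean in A and C, where fibroblast, mural and oligodendrocyte lineage marker sums are below it. Gadd45b, Ajuba, Myl9 and Ptpn14 are not above the mean in both A and C.

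Markers of the cell classes that the cultures could hold were summed in each library. Of 10 fibroblast markers 6 had a row (Col1a1, Col1a2, Col3a1, Fn1, Pdgfrb and Thy1), and their sum is not a count of fibroblasts. The sum ran from 1443 to 1891 normalized counts in WT_CSPG and from 1402 to 2191 in KO_CSPG. Of the 6 genes 0 were called, with 1 lower at an unadjusted p under 0.05. The mural markers, 3 of 9 with a row, ran from 288 to 416 and from 357 to 459.7, with 0 called and 1 higher at an unadjusted p under 0.05. The astrocyte and radial glia markers, 11 of 11 with a row, ran from 52284 to 60719 and from 57574 to 62460.2, and 1 of them, Nes, fell. At an unadjusted p under 0.05, 1 of these 11 was lower and 2, Gja1 (0.27) and Aqp4 (0.32), were higher, with a median log2 fold change of 0.09. The sums of the oligodendrocyte lineage markers, 8 of 8 with a row, did not overlap, at 1098 to 1461 against 1708 to 1913 normalized counts. Of these 8, 2 were called higher (25%, against 1.09% of all genes). At an unadjusted p under 0.05, 4 were higher (50%, against 7.51%) and 0 lower, with a median log2 fold change of 0.38. The neuron markers, 12 of 12 with a row, ran from 86570.2 to 91785 and from 85949 to 88624, and 1 of them, Neurod6, fell. The microglia markers, 6 of 9 with a row, ran from 1585 to 1845 and from 1681 to 2070.2, and all 6 had a log2 fold change above 0. Of these 6, 0 were called and 3 were higher at an unadjusted p under 0.05 (50%, against 7.51% of all genes). Of 9 endothelial markers 1 had a row, Kdr, at 47.5 to 82.5 and 36.8 to 54.1. Kdr was not called, and it was lower at an unadjusted p under 0.05, with a log2 fold change of −0.42. The proliferation markers, 9 of 9 with a row, ran from 2504 to 2703 and from 2535 to 2792, with 0 called and 0 at an unadjusted p under 0.05. The part of any of these cell classes in the differences of Emp1, Tgfb2, Flnc, Myh9 and Mkl2 was not tested.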

How the data were processed

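RNA of the 8 cultures was sequenced by the authors as poly-A, 50-base single reads, aligned at a facility and normalised with DESeq2 on Galaxy. The processing notes name mm10. The aligner, the counting program, its use of strand and its handling of shared reads are not given in the sources used here. The authors deposited a normalized signal (reads per gene over a size factor per library), printed here as normalized counts. Each library had its own smallest step, and dividing by it gave the reads. Libraries of a group differed by more than sampling noise (chi-square over degrees of freedom 1.83 to 2.90). The authors' own fold changes, standard errors, Wald statistics, p-values and calls are in the table and were not used. Per-sample columns left unused numbered 0.

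The fit was made on log2(value + 1) by limma 3.58.1 (R 4.3.3; trend and robust variance, two-sided), with Benjamini-Hochberg adjustment over the 12012 genes. Fold changes are on this scale, errors are standard errors of the fit, and a gene was called at an adjusted p under 0.05. The fit was tested on simulated data. Only 8 libraries limit the precision. All 45 gene identifiers were found in GENCODE M21, 36 with the same coordinates, and unique 50-base windows were counted in its transcripts. Values in every library were given for called genes, the 12 genes of smallest p and the pathway hubs and classic targets. From the other pathway lists the called genes and the 3 of smallest p were named. A called gene of these lists that is not named is not reported here. Ranges given for further genes, and the genes named for their spread, were picked with their values in view. The genes and lists were chosen with earlier results of these data known. Alternatives were other pseudocounts, filters, scaling and variance models, a replicate block, a Y-linked covariate, autosomal genes only and leaving out each library.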

Additional observations from a re-analysis of the deposited data

Results flagged for a closer look

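In 5 of the 90 groups of 4 libraries examined (45 genes in 2 groups), 1 library lay far from the other 3, and chance would give 4.5 such groups at 1 in 20. Actb was highest in KO_CSPG C, at 28701 normalized counts against 27514 to 27716 in the others. Tpm3 was lowest in KO_CSPG B, at 1204 against 1346 to 1369. Fhl1 was lowest in WT_CSPG C, at 1541 against 1622 to 1637. Cyr61 was lowest in KO_CSPG A, at 136 against 169 to 173. Asap1 was highest in KO_CSPG B, at 737 against 667 to 671. None of these 5 genes passed the test between the genotypes.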

How the results depend on the processing

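Pseudocounts of 0.1 and 10, a mean of at least 100, at least 10 in each library, no robust variance and autosomal genes only each called the same 5 genes and 0 higher. Upper-quartile scaling called 3 of the set (Flnc, Emp1 and Tgfb2), with 182 genes higher and 178 lower in all against 131 and 215, and gave Actb 0.0058. Without a trend, 0 of the set and 0 of the other SRF/MRTF list were called. With the Y-linked covariate 0 of either were called, and the log2 fold change turned for Lats2 (0.031), Axl (−0.13), Srf (0.050), Acta2 (−0.0705) and Ctgf (0.21). On leaving out each library in turn, 2 to 6 genes of the set were called. There were 2 without WT_CSPG B, KO_CSPG A or KO_CSPG C and 3 without WT_CSPG C or KO_CSPG D. Without WT_CSPG D there were 6, of which 3 were among the 5. The calls over all genes moved too, from 346 in the main fit to 576 without WT_CSPG D. They fell to 276, 186 and 204 without WT_CSPG B, KO_CSPG A and KO_CSPG C, and to 202 and 262 without WT_CSPG C and KO_CSPG D. The other SRF/MRTF list gave 1 to 4 calls and the other Hippo list 0 to 1 (without WT_CSPG D, 4 and 1). Log2 fold changes ran from −0.0201 to 0.0018 for Actb, from −0.0573 to 0.24 for Acta2 and from −0.0769 to 0.0190 for Yap1. The causes were not tested. The letters alone do not say whether the samples are paired, and the main fit used no pairing. Libraries of the same letter had correlations of −0.07, 0.10, 0.27 and −0.01 in their deviations, which cannot decide it. For WT_CSPG B and C the best match was the KO_CSPG library of the same letter, and for A and D it was another. A replicate block called 429 genes in all against 346, with the same 5 of the set. The planned models for counts were not run. Genes with a mean under 40.7 are not covered.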
